A study of Homo sapiens with 24 samples.

Results

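The genes described here are 10 members of the Notch pathway: the DNA-binding factor RBPJ, the coactivator MAML1, the receptors NOTCH1, NOTCH2 and NOTCH3, the ligands JAG1 and JAG2, and the targets HES1, HES4 and HEY1. They were chosen by symbol, and every Illumina probe that the platform annotation gives to 1 of these symbols was taken, which made 19 probes of the 47231 in the table, for 10 of the 20045 genes with a named probe. Of these, 10 probes of 9 genes lay above background on at least 6 arrays and entered the tests, which covered 19395 probes in all. The list of genes was drawn up with results of these arrays known, so differences between groups are given for it as a description, with standard errors and without p-values. A member is said to have risen or fallen only where its probe passed the same threshold as every other probe, a Benjamini-Hochberg adjusted p of 0.05 over all probes tested with limma.

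The arrays measured HB2 cells, immortalised epithelial cells of the human breast. They received 50 nM of an siRNA aimed at exon 1, at exon 7 or at exon 9 of GNG12-AS1, which is a noncoding RNA gene of chromosome 1, or of a control siRNA, and RNA was taken after 48 h. Each of these 4 groups had 6 biological replicates, so that total RNA was read on 24 bead arrays. The sample titles place the 4 arrays of a replicate number in 1 experiment, and all cells came from this 1 line and had the same transfection reagent. The main fit has no term for the experiment, so its standard errors, intervals and calls leave this pairing out. No probe of the annotation carries the name GNG12-AS1, so the loss of the targeted RNA was not checked on the arrays. Array medians lay between 7.41 and 7.74 on the log2 scale before normalisation, and 34.2% to 39.5% of probes lay above background on an array. Of the mammary epithelial markers, KRT5, KRT8, KRT18, KRT19, EPCAM, CDH1 and LAMB3 were above background on all 24 arrays and KRT14 on 0. Of the endothelial list CDH5, VWF, KDR and ESAM were above background on 0 arrays, PECAM1 on 6 and TEK on 3. Of the immune list PTPRC, CD3E and LYZ were above it on 0 arrays, ITGAM on 5, and CD14 and CD68 on all 24. Of the fibroblast list PDGFRA and PDGFRB were above it on 0 arrays, COL3A1 on 1, LUM on 4, DCN on 8, COL1A2 on 15 and COL1A1 on 16.

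Notch receptors sit in the cell membrane and are bound by ligands of the Jagged and Delta-like families on neighbouring cells. Ligand binding lets an ADAM protease and then the gamma-secretase complex cut the receptor, and the freed intracellular part travels to the nucleus. There it joins RBPJ on DNA together with a Mastermind-like coactivator such as MAML1, and genes of the HES and HEY families, which encode repressors, are switched on. Without the receptor fragment RBPJ binds corepressors instead. In the mammary epithelium the pathway is known for its part in the choice between the luminal and basal lineages.

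RBPJ binds DNA at the core motif TGGGAA, and the promoters of 3 members that hold it are shown because RBPJ, HES4 and HES1 are the nuclear factor and the targets whose values are given next. Each window runs from 250 bases before a start annotated to the gene to 50 bases after it, in RefSeq's record for GRCh38.p14, and is written 5′ to 3′ on the gene's strand. Capitals mark TGGGAA or its reverse complement TTCCCA.
HES4, chr1:1000048-1000347, minus strand: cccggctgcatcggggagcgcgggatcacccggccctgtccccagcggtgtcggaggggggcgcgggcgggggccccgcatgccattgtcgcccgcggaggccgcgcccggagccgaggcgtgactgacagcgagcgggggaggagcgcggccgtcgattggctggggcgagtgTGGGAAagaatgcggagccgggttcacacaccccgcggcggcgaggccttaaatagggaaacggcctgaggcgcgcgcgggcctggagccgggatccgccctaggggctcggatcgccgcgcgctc
HES1, chr3:194135898-194136197, plus strand: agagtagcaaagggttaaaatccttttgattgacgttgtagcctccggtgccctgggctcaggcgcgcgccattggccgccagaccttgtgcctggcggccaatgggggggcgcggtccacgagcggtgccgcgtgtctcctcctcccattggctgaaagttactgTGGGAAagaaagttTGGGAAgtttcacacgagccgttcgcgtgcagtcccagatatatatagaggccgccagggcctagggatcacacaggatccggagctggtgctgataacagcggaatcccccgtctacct
RBPJ, chr4:26319496-26319795, plus strand: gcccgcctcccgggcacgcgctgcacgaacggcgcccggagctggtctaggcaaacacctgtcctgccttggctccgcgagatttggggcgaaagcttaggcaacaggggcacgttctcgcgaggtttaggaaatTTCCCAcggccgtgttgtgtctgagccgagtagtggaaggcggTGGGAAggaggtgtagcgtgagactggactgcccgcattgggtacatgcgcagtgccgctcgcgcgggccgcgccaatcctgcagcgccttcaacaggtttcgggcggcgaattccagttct

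The match in HES4 began 76 bases before the start, and the matches in HES1 began 84 and 70 bases before it. The HES4 match and the first HES1 match lay within the longer form TGTGGGAA. RBPJ has 5 windows, of which the 1 shown held a match at 115 and another at 72 bases before the start it was drawn on. That start lies inside the RBPJ coordinates given below, not at their beginning. Whether it serves the transcript that a given RBPJ probe measures was not tested. Windows were found for 9 members, and those of NOTCH1, NOTCH2, NOTCH3, JAG1, JAG2 and MAML1 held neither motif on either strand. Over all 35116 promoter windows 24.03% held TGGGAA on either strand and 1.71% held TGTGGGAA. Of the 13 windows of members, 3 held TGGGAA and 2 held TGTGGGAA. For TGGGAA this is near the share of all windows, so this shorter motif is no trait of the members as a set. RBPJ alone has 5 of the 13 windows, so they are not 1 for each gene. The 2 windows with TGTGGGAA are those of HES4 and HES1, and whether that number exceeds the share of all windows was not tested. A match is a run of letters in this window only and says nothing of binding in these cells.

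RBPJ was higher with each of the 3 siRNAs than with the control siRNA. The gene lies on chromosome 4 (26105449 to 26435131, GRCh38.p14) and has 3 probes, each annotated to another of its RefSeq transcripts. The probe ILMN_1708537 was above background on all 24 arrays. Its log2 intensity had a lowest value of 7.93, a median of 8.21 and a highest value of 8.38 with the exon 1 siRNA, and 8.02, 8.32 and 8.53 with the exon 7 siRNA. With the exon 9 siRNA it had a lowest value of 7.92, a median of 8.11 and a highest value of 8.29, against 6.60, 7.03 and 7.31 with the control siRNA. All 18 siRNA arrays thus lay above all 6 control arrays. The log2 difference from control was 1.22 ± 0.11 for exon 1, 1.33 ± 0.11 for exon 7 and 1.15 ± 0.11 for exon 9 (SE of the model, n = 6 arrays a group), which are 2.33-fold, 2.51-fold and 2.22-fold. All 3 passed the threshold. The comparisons share the same 6 control arrays, so they are not 3 independent observations. Since whole cultures were read, a change in the share of cells that express a gene and a change in its RNA per cell cannot be told apart, here and for every gene below.

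Taken within a replicate number, RBPJ was higher than the control array of that number in 6 of 6 for each siRNA. These differences ran from 0.92 to 1.64 for exon 1, from 1.06 to 1.67 for exon 7 and from 0.79 to 1.63 for exon 9. The array columns stand in 2 sets of 12 in the table, with 3 arrays of each group in each set, and the labels do not say what these sets are. Within a set the siRNA and control arrays come mostly from different experiments, so differences within a set, here and below, are not paired. Within the first and second sets the differences were 1.13 and 1.31 for exon 1, 1.09 and 1.56 for exon 7, and 1.02 and 1.28 for exon 9, and all of them passed the threshold in fits of 12 arrays. Without background correction the log2 differences were 0.71, 0.78 and 0.66 for exons 1, 7 and 9, and they still passed.

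The order of the RBPJ group means was 8.30 for exon 7, 8.20 for exon 1, 8.13 for exon 9 and 6.98 for control. The first 3 did not differ beyond their spread. Exon 1 minus exon 7 was -0.11 (95% interval -0.33 to 0.12), exon 1 minus exon 9 was 0.07 (-0.15 to 0.29), and exon 7 minus exon 9 was 0.18 (-0.05 to 0.40). The siRNA group accounted for 91.0% of the variance of RBPJ over the 24 arrays and the replicate number for 3.21%.

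The other RBPJ probes gave little signal. ILMN_2316844 was above background on 3 exon 1 arrays, 1 exon 7 array, 0 exon 9 arrays and 0 control arrays, with group means of 6.26, 6.08, 6.12 and 6.03. ILMN_1726913 was above background on 0 of 24 arrays. The rise of RBPJ therefore rests on 1 probe, and no fold can be given for the transcripts of the other probes.

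**Figure D1:**
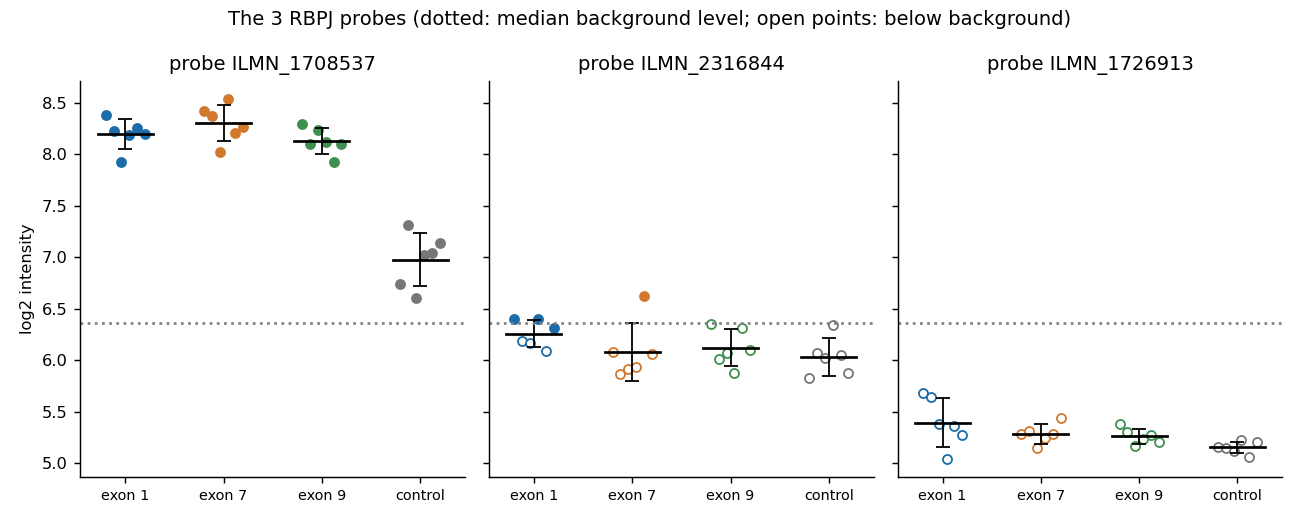
Log2 intensity of the 3 RBPJ probes on every array, by siRNA group (6 arrays each); black lines give the mean and bars the SD, and the dotted line is the median background level of 6.36. With ILMN_1708537 the 18 siRNA arrays lie between 7.92 and 8.53, above the control arrays at 6.60 to 7.31, while the other probes lie near or below background in every group.

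HES4 was lower with each siRNA, by the most with exon 9. HES4 encodes a basic helix-loop-helix repressor of the family that Notch switches on, and lies on chromosome 1 (998964 to 1000097, GRCh38.p14). Its probe, ILMN_1653466, was above background on all 24 arrays. The log2 intensity had a lowest value of 10.28, a median of 10.61 and a highest value of 10.77 with the exon 1 siRNA, and 10.28, 10.59 and 10.72 with the exon 7 siRNA. With the exon 9 siRNA these were 10.11, 10.24 and 10.44, against 10.77, 10.90 and 11.05 with the control siRNA. Every siRNA array lay below every control array, although the highest exon 1 array and the lowest control array round to the same value. The log2 difference from control was -0.33 ± 0.09 for exon 1, -0.33 ± 0.09 for exon 7 and -0.64 ± 0.09 for exon 9. Those for exon 1 and exon 9 passed the threshold. The difference for exon 7, of the same size as that for exon 1, did not. It passed in 8 of 15 alternative ways of processing or fitting, among them those with the replicate number as a block, without background correction and with the authors' values. It passed in 0 of the 18 fits that left out an array or a replicate number.

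Within replicate numbers HES4 was lower in 6 of 6 for every siRNA, by 0.14 to 0.53 for exon 1, 0.16 to 0.52 for exon 7 and 0.52 to 0.75 for exon 9 (log2). In the first and second column sets the differences were -0.36 and -0.30 for exon 1, -0.47 and -0.19 for exon 7, and -0.64 and -0.65 for exon 9, none of which passed in a set of 12 arrays. The exon 1 call was also lost with median scaling (-0.32), with exon 1 and control fitted alone, and without exon 1 replicate 1 (-0.27), exon 1 replicate 2 (-0.31) or control replicate 3 (-0.30), and without the whole of replicate number 1, 2, 3 or 5. The exon 9 call was kept whichever single array was left out.

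The siRNAs differed among themselves at HES4. Exon 1 minus exon 9 was 0.31 ± 0.09, which passed the threshold, and exon 7 minus exon 9 was 0.31 ± 0.09, which did not pass. The latter passed in 9 of 15 alternatives, the replicate block among them, and in 3 of 18 fits that left out an array or a replicate number. Exon 1 and exon 7 had nearly the same mean, with a 95% interval of their difference from -0.18 to 0.18. The call between exon 1 and exon 9 was lost without exon 1 replicates 2 to 6, left out 1 at a time, and without exon 9 replicate 1, 2, 5 or 6.

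HES1 and HEY1 encode the other measured targets. HES1, on chromosome 3 (194136148 to 194138732, GRCh38.p14), had a lowest value of 6.90, a median of 7.38 and a highest value of 7.59 with exon 1, and 6.84, 7.17 and 7.51 with exon 7. With exon 9 these were 6.23, 7.19 and 7.60, against 7.06, 7.76 and 7.86 with control. The groups overlapped, and the lowest exon 9 array was the 1 array of 24 on which HES1 was not above background. The log2 difference was -0.26 ± 0.19 for exon 1, -0.44 ± 0.19 for exon 7 and -0.58 ± 0.19 for exon 9, and none passed the threshold. With the replicate number as a fixed block the exon 9 difference passed, and with the number as a random effect it did not. HES1 was lower than the control of its number in 5 of 6 for exon 1 and in 6 of 6 for exon 7 and for exon 9. HEY1 was not tested: of its 2 probes, 1 was above background on 5 arrays and the other on 0.

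**Figure D2:**
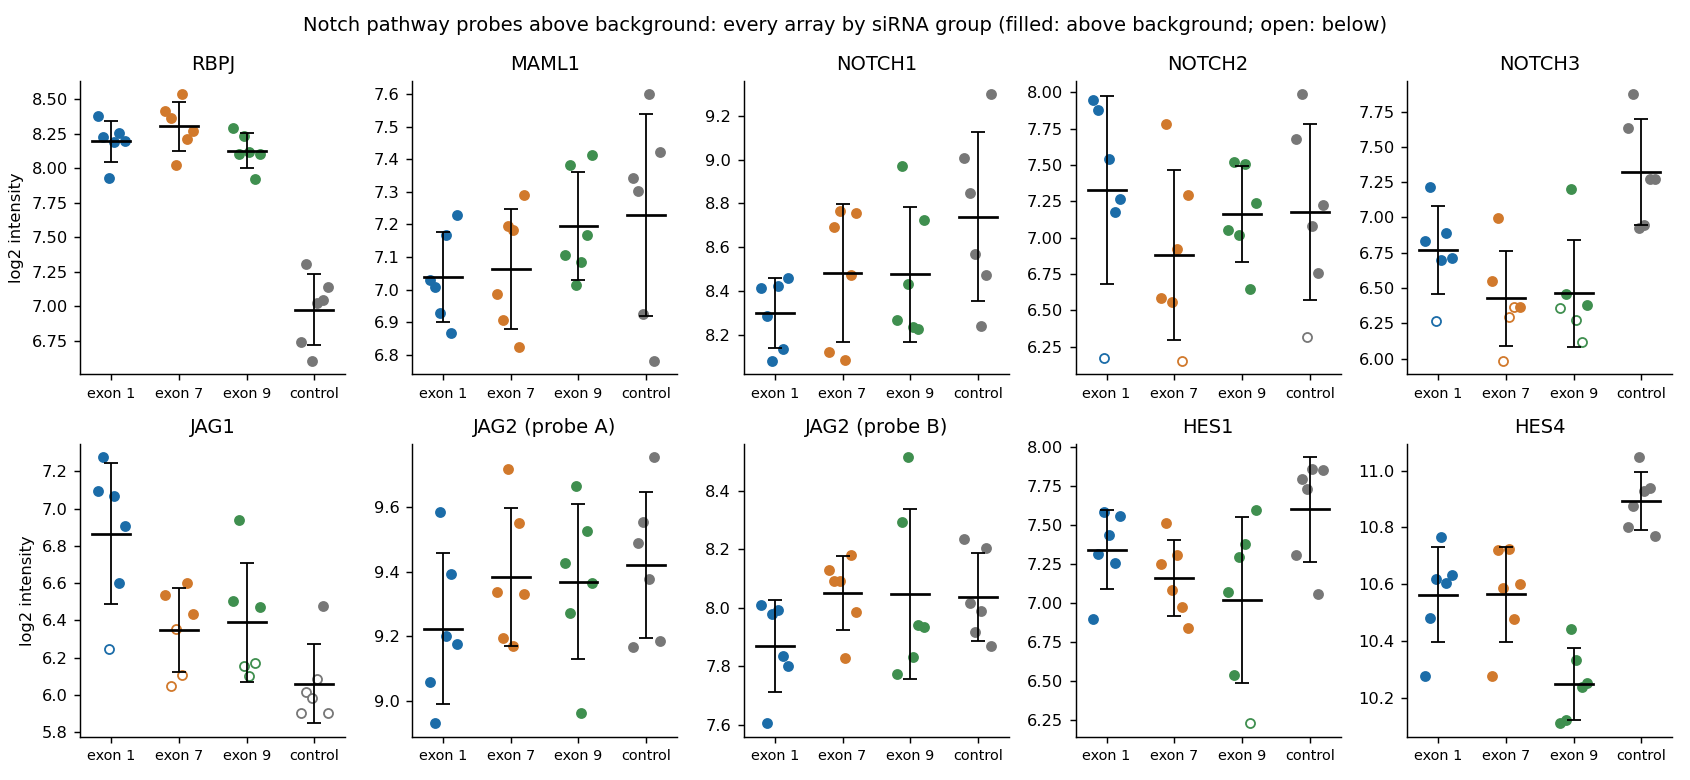
Log2 intensity of the 10 probes of 9 Notch pathway genes that entered the tests, 1 panel a probe, with each array as a point by siRNA group; black lines give the mean, bars the SD (n = 6), and open points are arrays on which the probe was not above background. RBPJ is above control on every siRNA array and HES4 below it on every siRNA array, while the groups overlap in the other panels; each panel has its own vertical scale, and levels of different probes cannot be compared.

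Among the receptors, NOTCH3 was lower with the exon 7 and exon 9 siRNAs. NOTCH3, on chromosome 19 (15159038 to 15200995, GRCh38.p14), had a lowest value of 6.27, a median of 6.77 and a highest value of 7.22 with exon 1, and 5.98, 6.37 and 7.00 with exon 7. With exon 9 these were 6.11, 6.37 and 7.20, against 6.93, 7.27 and 7.87 with control. Its probe was above background on 5 exon 1 arrays, 3 exon 7 arrays, 3 exon 9 arrays and 6 control arrays, so part of the siRNA values lie at the lower end of what the array can measure. All groups overlapped with control. The log2 difference was -0.55 ± 0.19 for exon 1, -0.90 ± 0.19 for exon 7 and -0.86 ± 0.19 for exon 9, and the differences for exon 7 and exon 9 passed the threshold. The exon 1 difference passed only with the replicate number as a block and without replicate 3.

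Leaving out single arrays, the NOTCH3 call for exon 7 was lost without control replicate 1 (-0.83) or control replicate 2 (-0.78), and also when exon 7 and control were fitted alone. With a whole replicate number left out it was lost for 4 of the 6 numbers in exon 7 and for 3 in exon 9. In the column sets the differences were -0.62 and -0.49 for exon 1, -1.06 and -0.73 for exon 7, and -0.69 and -1.03 for exon 9, none of them past the threshold. Without background correction they were -0.28, -0.45 and -0.43 for exons 1, 7 and 9, and those for exon 7 and exon 9 still passed. The exon 9 array of replicate 3, at 7.20, stood apart from the other exon 9 arrays at 6.11 to 6.46, and without it the exon 9 difference was -1.005.

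NOTCH1 and NOTCH2 did not pass the threshold in any comparison with control. NOTCH1, on chromosome 9 (136494433 to 136546048, GRCh38.p14), was above background on all 24 arrays, with medians of 8.35, 8.58 and 8.35 for exons 1, 7 and 9 and 8.71 for control. Its log2 difference was -0.44 ± 0.17 for exon 1, -0.26 ± 0.17 for exon 7 and -0.26 ± 0.17 for exon 9, and the exon 1 difference passed with the replicate number as a fixed block but not as a random effect. In the column sets the NOTCH1 difference was -0.09 and -0.79 for exon 1 and 0.19 and -0.72 for exon 9, so it was not of 1 size or, for exon 9, of 1 sign. The replicate number held 38.6% of the variance of NOTCH1, and within a set siRNA and control arrays came mostly from different experiments. Differences between the sets and between experiments can therefore not be told apart here. Within replicate numbers NOTCH1 was lower than control in 5 of 6 for each siRNA. NOTCH2, on chromosome 1 (119911553 to 120069662, GRCh38.p14), had 3 probes, of which 1 was tested. Its values ranged from 6.17 to 7.95 with exon 1, 6.15 to 7.78 with exon 7, 6.65 to 7.52 with exon 9 and 6.32 to 7.99 with control, so the groups overlapped. The range was narrowest with exon 9, with an SD of 0.33 against 0.61 with control. The log2 difference was 0.15 ± 0.30, -0.29 ± 0.30 and -0.01 ± 0.30 for exons 1, 7 and 9, and the replicate number held 63.4% of the variance of NOTCH2, against 9.19% for the siRNA group. NOTCH2 has near-identical partial copies elsewhere on chromosome 1, and which of them the probe also measures was not tested.

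Among the ligands, JAG1 was higher with the exon 1 siRNA. JAG1, on chromosome 20 (10637684 to 10673999, GRCh38.p14), had a lowest value of 6.24, a median of 6.99 and a highest value of 7.28 with exon 1, and 6.05, 6.39 and 6.60 with exon 7. With exon 9 these were 6.10, 6.32 and 6.94, against 5.90, 6.00 and 6.47 with control. The probe was above background on 5, 3 and 3 arrays of exons 1, 7 and 9 and on 1 control array, so the control level is close to a background reading. The log2 difference was 0.80 ± 0.16 for exon 1, 0.29 ± 0.16 for exon 7 and 0.33 ± 0.16 for exon 9, and only that for exon 1 passed the threshold. With values under each array's background level set to that level, the exon 1 difference was 0.52, and without background correction it was 0.40, and it passed in both. In the column sets the exon 1 difference was 0.83 and 0.78, of which the first passed.

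Within replicate numbers the JAG1 differences of exon 1 from control ran from 0.13 to 1.26, and they were above 0 in 6 of 6. Exon 1 minus exon 7 was 0.52 ± 0.16 and passed the threshold, and exon 1 minus exon 9 was 0.48 ± 0.16 and did not. The exon 7 mean of 6.35 lay at the median background level of 6.36, so the size of the difference between exon 1 and exon 7 is uncertain. Its call was lost without background correction (0.25) and in 13 of the 18 fits that left out an array or a replicate number, among them those without exon 1 replicate 1, 2, 4 or 6 and without exon 7 replicate 1, 2, 3, 4 or 6.

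JAG2, on chromosome 14 (105140995 to 105168776, GRCh38.p14), had 3 probes, of which 2 were above background on all 24 arrays. The log2 differences for exons 1, 7 and 9 were -0.20, -0.04 and -0.05 (± 0.13 each) with ILMN_1764729, and -0.17, 0.01 and 0.01 (± 0.11 each) with ILMN_2399523, and none passed. MAML1, on chromosome 5 (179732822 to 179777283, GRCh38.p14), had 1 tested probe of 3, with differences of -0.19, -0.16 and -0.03 (± 0.12 each). Its 95% intervals were -0.44 to 0.06, -0.41 to 0.08 and -0.28 to 0.21.

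**Figure D3:**
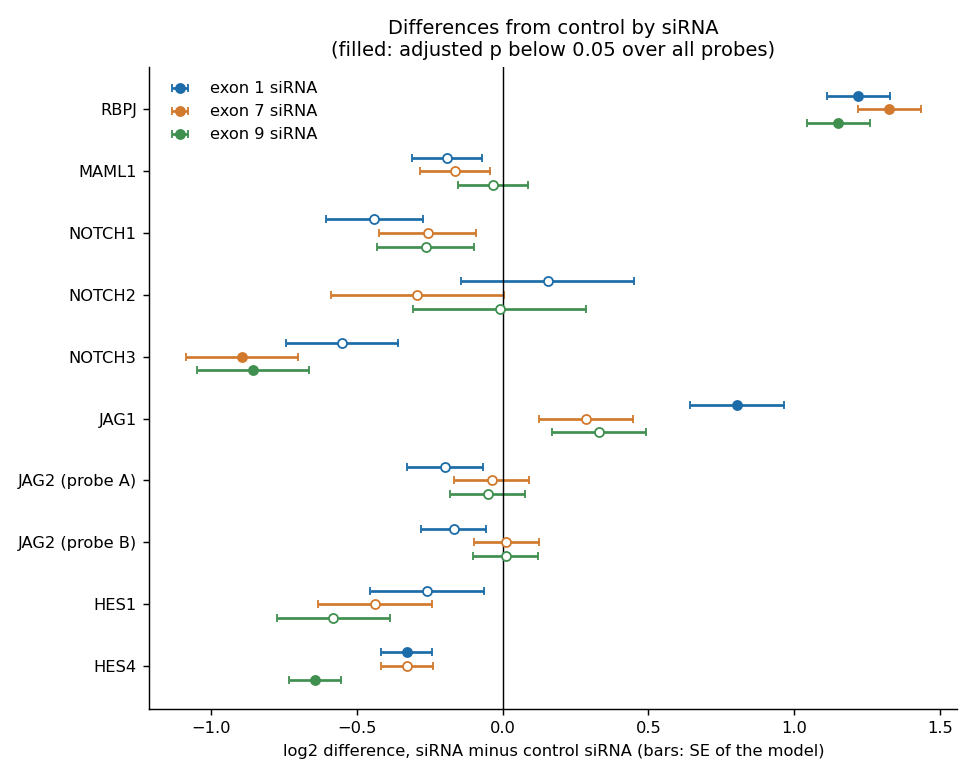
Log2 difference from the control siRNA (horizontal axis) of the 10 tested probes, with exon 1, exon 7 and exon 9 from top to bottom within a gene; bars are the SE of the model, and filled points passed the adjusted p of 0.05 over all probes. RBPJ stands at 1.15 to 1.33 with all siRNAs, JAG1 is filled for exon 1, NOTCH3 for exon 7 and exon 9, and HES4 for exon 1 and exon 9.

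Counted over the 10 tested probes, 3 passed with exon 1 (RBPJ and JAG1 higher, HES4 lower), where 6.96% of all 19395 probes passed, 3.49% higher and 3.47% lower. With exon 7, 2 passed (RBPJ higher, NOTCH3 lower), where 1.17% of all probes did, 0.712% higher and 0.459% lower. With exon 9, 3 passed (RBPJ higher, NOTCH3 and HES4 lower), where 2.34% of all probes did, 1.27% higher and 1.07% lower. The genes were chosen with these contrasts known, so the counts are not set against these shares. The median log2 difference over the 10 probes was -0.19, -0.21 and -0.04 for exons 1, 7 and 9, against 0.00 over all probes in each. Between siRNAs, 1 of 10 probes passed for exon 1 minus exon 7 (JAG1), 1 for exon 1 minus exon 9 (HES4) and 0 for exon 7 minus exon 9, where 7.9%, 5.52% and 2.68% of all probes passed. With the replicate number as a block, 5, 3 and 4 of the 10 probes passed against control for exons 1, 7 and 9, where 2459, 585 and 1116 of all 19395 probes did.

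In each comparison with control, 2 of the 10 probes had groups that did not overlap, RBPJ above and HES4 below the control arrays. Over all probes this held for 3.57% with exon 1, 1.49% with exon 7 and 2.27% with exon 9.

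**Figure D4:**
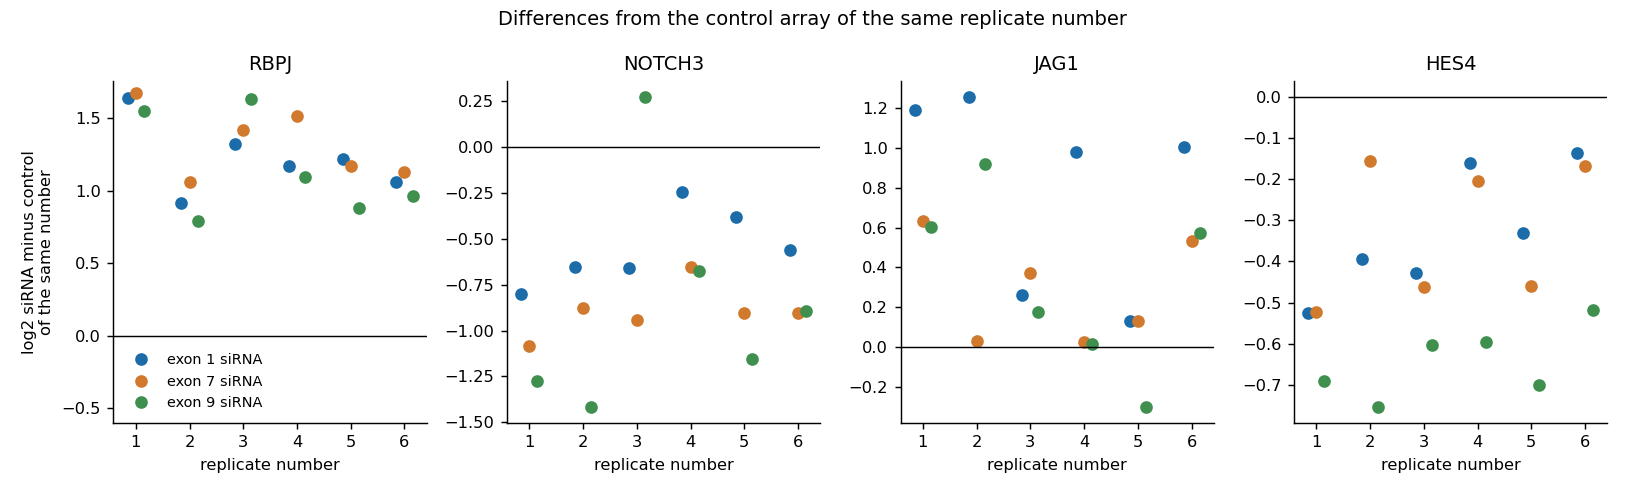
Log2 difference of each siRNA array from the control array of the same replicate number for RBPJ, NOTCH3, JAG1 and HES4; each point is 1 pair of arrays and the line marks 0. RBPJ is above 0 and HES4 below 0 in all 18 pairs, NOTCH3 is above 0 in 1 pair (exon 9, replicate 3, at 0.28), and JAG1 is below 0 in 1 pair (exon 9).

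Between arrays, the members were compared by correlation. Over the 24 arrays RBPJ had a Pearson r of -0.66 with HES4, -0.56 with NOTCH3 and 0.52 with JAG1. These values follow the group means: after each group's mean was taken off they were -0.20, 0.53 and 0.19, so that for NOTCH3 the sign turned. Within groups NOTCH2 had an r of 0.63 with NOTCH3 and of -0.69 with the brighter JAG2 probe. The replicate number held 63.4% of the variance of NOTCH2, 62.7% of that of this JAG2 probe and 16.8% of that of NOTCH3, so arrays of 1 experiment shared part of their level and are not 24 separate points in these correlations. All these values come from the same 24 arrays and are given as a description.

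The 5 named probes most like RBPJ, by Pearson r over the 24 arrays among 14548 named probes, belonged to H3-3A (0.91), MAP2K4 (0.90), MCFD2 (0.89), PPP3CB (0.88) and STMN1 (0.88). H3-3A encodes the histone variant H3.3, MAP2K4 a kinase upstream of JNK, MCFD2 a cargo-receptor subunit of the early secretory pathway, PPP3CB a catalytic subunit of calcineurin, and STMN1 the microtubule regulator stathmin. Their Spearman rho with RBPJ was lower, at 0.64, 0.70, 0.60, 0.61 and 0.67 in the same order. Each had positive differences from control with all siRNAs, for example MAP2K4 with 0.85, 0.80 and 0.83 (log2) for exons 1, 7 and 9. This follows from the choice of probes, since the siRNA group held 91.0% of the variance of RBPJ. Within groups their r with RBPJ was 0.41, 0.12, 0.06, 0.24 and 0.12 in the same order, so the likeness was mostly one of group means.

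Beyond the 10 members, 75 other genes of the pathway were listed in 7 roles, of which 53 were tested on their brightest probe. These lists too were drawn up with earlier results of these data known. The adjusted p-values given for them below are therefore a description of the fit and not an independent test. With exon 1, 5 of 53 rose and 3 fell. With exon 7, limma called 0 of 53, and 6 had an unadjusted p below 0.05, where 1953 of all 19395 probes did, a like share. With exon 9, 2 rose and 0 fell. Over all 11029 genes tested this way 8.41%, 1.51% and 2.93% passed with exons 1, 7 and 9, and the median log2 difference over the 53 genes was 0.00, 0.02 and 0.00. With the replicate number as a block, 15, 2 and 6 of 53 passed, where 2459, 585 and 1116 of all 19395 probes did. The counts over 19395 probes take in every kept probe and not only the brightest of a gene. In the main fit the shares over probes, at 6.96%, 1.17% and 2.34%, were below those over genes. The counts with the block are therefore not set against each other.

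Among the other receptors and ligands, DNER, a membrane ligand of Notch with EGF-like repeats, rose with exon 1 by 1.10 ± 0.16 (limma, adjusted p = 8.26e-05), with means of 8.77 ± 0.40 for exon 1 and 7.68 ± 0.36 for control (SD, n = 6 each). It also differed between the siRNAs, with exon 1 minus exon 7 at 0.96 ± 0.16 (limma, adjusted p = 0.000442) and exon 1 minus exon 9 at 0.74 ± 0.16 (limma, adjusted p = 0.00600), and every exon 1 array lay above every exon 7 and exon 9 array. DLL3, a Delta-like protein that acts on Notch within the same cell, fell with exon 1 by 0.42 on the log2 scale (limma, adjusted p = 0.0414), a call lost in 12 of the 18 fits that left out an array or a replicate number. DLK2, a non-canonical Delta-like protein, rose with exon 9 by 0.60 ± 0.13 (limma, adjusted p = 0.00895), while its second probe stood at -0.04 ± 0.14, and the call was lost with its probes averaged (0.28) and without replicate number 1 (0.58) or 2 (0.55).

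Of the proteases that cut the receptors, ADAM10, ADAM17 and the 5 gamma-secretase genes tested (PSEN2, NCSTN, APH1A, APH1B and PSENEN) had log2 differences from -0.08 to 0.17 over the 3 siRNAs on their brightest probes, with SE of 0.08 to 0.13 and a lowest adjusted p of 0.529 in limma. Their dimmer probes spread more widely. A second probe of APH1B passed with exon 1 at 0.47 ± 0.13 (limma, adjusted p = 0.0321), so the probes of this gene disagree. With exon 1 the other probes of ADAM17 stood at 0.26 and 0.23 and those of PSEN2 and ADAM10 at -0.23 and -0.17, and the other ADAM10 probe stood at -0.22 with exon 7, none of them past the threshold. FURIN, the convertase that cleaves the receptor precursor, rose with exon 1 by 0.53 ± 0.15 (limma, adjusted p = 0.0260), a call lost in 10 of 18 fits with arrays left out. Of the 11 ubiquitin ligases and endocytic regulators tested, 0 passed with any siRNA in limma, and 1, 1 and 0 had an unadjusted p below 0.05 with exons 1, 7 and 9. Over all 19395 probes 3729, 1953 and 2517 had such a p.

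Among the nuclear partners of RBPJ, the acetyltransferase CREBBP fell with exon 1 by 0.70 on the log2 scale (SE 0.12; limma, adjusted p = 0.000329), with every exon 1 array below every control array. Its second probe stood at -0.25 ± 0.16 and did not pass. KAT2B, also an acetyltransferase, had means of 9.16 ± 0.28 for exon 1, 8.90 ± 0.26 for exon 7 and 7.95 ± 0.32 for exon 9, against 8.55 ± 0.45 for control (SD, n = 6 each). It rose with exon 1 by 0.60 ± 0.18 (limma, adjusted p = 0.0478), a call lost in 15 of 18 fits with arrays left out, and stood at -0.60 ± 0.18 with exon 9 (limma, adjusted p = 0.0942). The exon 9 difference passed, as lower, with the replicate number as a block, fixed or random, and without control replicate 3 or the whole of replicate number 3. Exon 1 minus exon 9 was 1.20 ± 0.18 (limma, adjusted p = 0.000199), and these groups did not overlap. CCNC, the cyclin of the Mediator kinase module, rose with exon 1 by 0.42 ± 0.09 (limma, adjusted p = 0.00391), and its other probes gave 0.48 and 0.49. With exon 7 CCNC stood at 0.30 ± 0.09 on its brightest probe (limma, adjusted p = 0.115), and 1 of its other probes passed at 0.41 ± 0.08 (limma, adjusted p = 0.00826). The corepressor CTBP2 fell with exon 1 by 0.56 on the log2 scale (SE 0.14; limma, adjusted p = 0.0175), with -0.54 and -0.01 on its other probes. This call was lost without exon 1 replicate 2 (-0.49) and without replicate number 1 (-0.53), 2 (-0.45) or 6 (-0.53).

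Among targets outside the HES and HEY families, SNAI2, which encodes the transcriptional repressor SLUG, rose with exon 1 by 0.66 ± 0.10 (limma, adjusted p = 0.000167) and with exon 9 by 0.50 ± 0.10 (limma, adjusted p = 0.00661). With exon 7 it stood at -0.06 ± 0.10, and exon 1 minus exon 7 was 0.73 ± 0.10 (limma, adjusted p = 7.00e-05). Its second probe gave 0.67, 0.04 and 0.48 for exons 1, 7 and 9. The 3 other HES and HEY genes tested did not pass with any siRNA in limma, and 1, 0 and 0 of them had an unadjusted p below 0.05. With 3 genes these counts cannot be set against the share of all probes.

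**Figure D5:**
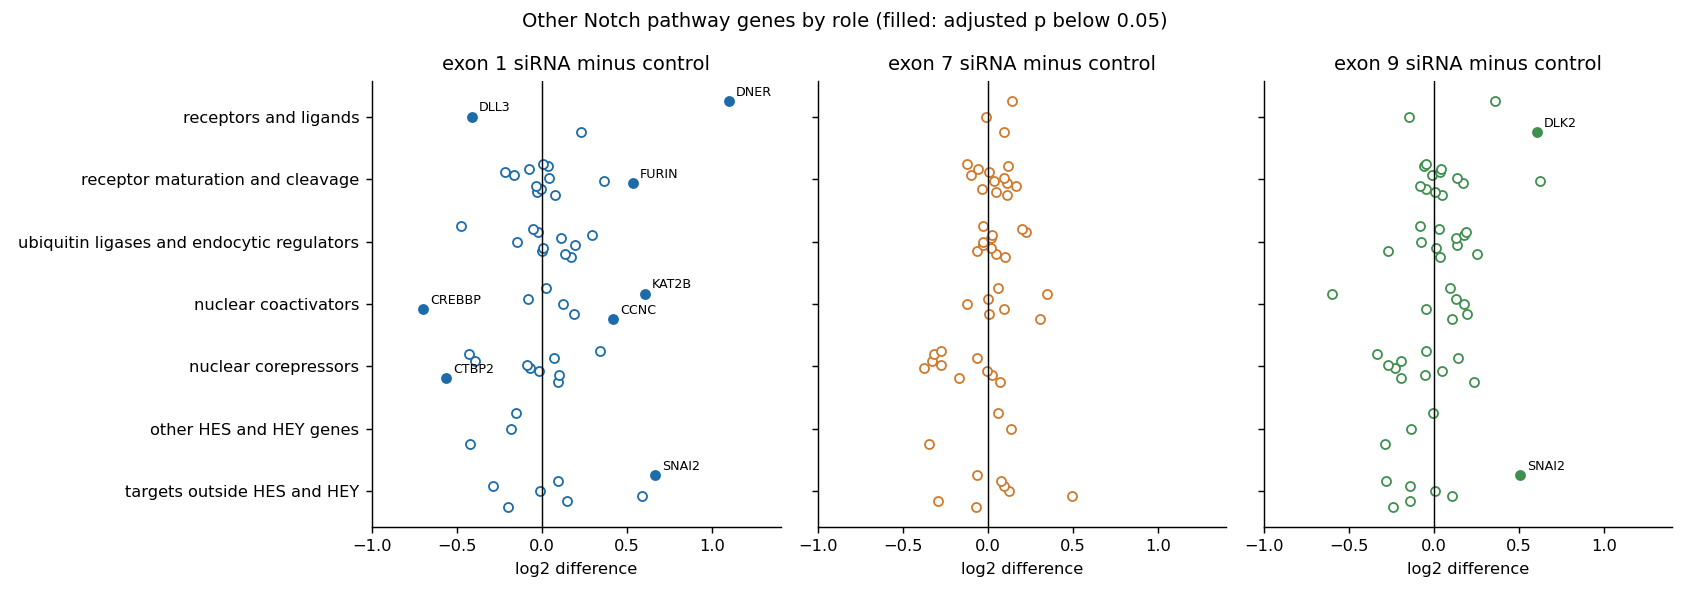
Log2 difference from control (horizontal axis) of the 53 other Notch pathway genes, 1 panel for each siRNA and 1 row for each role; filled and named points passed the adjusted p of 0.05. With exon 1, 8 genes are filled, with exon 7 none of the 53, and with exon 9 DLK2 and SNAI2; SNAI2 is the gene filled with both.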

How the data were processed

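Total RNA was labelled with biotin and hybridised to Illumina bead arrays, per the labels' protocols. The deposited table holds log2 intensities, 1 for each probe and array, not normalised between arrays; the authors' series matrix holds log2 intensities with 1 common distribution. No source used here names the tools. Values were returned to the linear scale, corrected with limma's neqc (normexp, offset 16; limma 3.58.1, R 4.3.3), quantile normalised and returned to log2. In place of negative controls, 437 olfactory receptor probes stood for background; a probe was kept with a detection p below 0.05 on at least 6 arrays. Arrays give intensities, so their number limits the precision.

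A model with 1 mean for each group was fitted to 19395 probes over 24 arrays with lmFit and eBayes, two-sided, with Benjamini-Hochberg adjustment at 0.05. It had no replicate block, so the SE, intervals and calls taken from it do not use the pairing of arrays by experiment. Other pathway genes used their brightest kept probe. The named genes are every member probe, every listed pathway gene past the threshold against control with any siRNA, the ADAM and gamma-secretase genes, and the 5 probes most like RBPJ. Members and lists were chosen with earlier results of these data known. Beyond the word biological and the experiment numbers in the titles, nothing in the labels says that replicates came from separate cultures. Per the labels, a replicate number is 1 experiment. Deviations from group means correlated between arrays of the same number at -0.06 to 0.51 (mean 0.17), against a mean of -0.03 between numbers, and 21 of 24 arrays were most like one of their own number. Of the probes, 30112 had 1 gene symbol, 8 several and 17108 none; 30073 were matched to RefSeq names, and promoter windows and coordinates are RefSeq's (GRCh38.p14). The steps were tested on simulated data.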

Additional observations from a re-analysis of the deposited data

Results flagged for a closer look

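In groups of 6 arrays, a value was marked when its gap to the nearest other array, divided by the group's range, exceeded Dixon's 95% critical value. This held in 4 of 104 groups over 26 probes, and chance marks about 1 in 20. The exon 9 array of replicate 3 had a NOTCH3 log2 intensity of 7.202, against 6.115 to 6.455 on the other exon 9 arrays. The control array of replicate 5 had a JAG1 value of 6.474, against 5.902 to 6.084 on the other control arrays, and without it the exon 1 difference of JAG1 was 0.89. The exon 7 array of replicate 3 had a DLL3 value of 9.005, against 8.917 to 8.932. The control array of replicate 3 had an ADAM10 value of 7.652, against 8.238 to 8.417. The replicates marked in more than 1 of these are number 3, in 3 groups of arrays.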

How the results depend on the processing

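None of the 20 calls on named genes changed sign under any alternative, while 176 of 2861 values of differences that had not passed did. RBPJ passed with all siRNAs in every fit that tested it. It was not tested with a detection p below 0.01 on all arrays, nor were NOTCH3 and JAG1, and there 1, 1 and 1 members passed for exons 1, 7 and 9, each time HES4. Counts below are for exon 1, exon 7 and exon 9 against control. With the replicate block 5, 3 and 4 members, 15, 2 and 6 other pathway genes and 2459, 585 and 1116 probes passed; the members added were NOTCH1 and NOTCH3 for exon 1, HES4 for exon 7 and HES1 for exon 9, and the block ended no member's call. As a random effect it gave 2059, 394 and 839 probes, with 5 other pathway genes for exon 9. With the column set added to the block after the data were seen, 5 members passed for exon 1, 16, 2 and 7 other genes, and 3190, 885 and 1561 probes. With median scaling 124 and 266 probes passed for exons 7 and 9. For exon 7 they were 59 higher and 65 lower, against 138 and 89 as reported, and for exon 9 165 and 101, against 246 and 207. With the compared groups fitted alone, 764, 103 and 262 probes passed, 1 member for exon 7 and 5 other genes for exon 1. Without a detection filter 5 other genes passed for exon 1, and with a gene's probes averaged 2 passed for exon 7. In the first column set 309, 15 and 43 probes, 1 member for exons 7 and 9, and 3, 0 and 0 other genes passed; in the second 81, 13 and 39 probes, 1, 1 and 1 members and 0, 0 and 0 other genes, with 3 arrays a group.

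Between siRNAs, members called for exon 1 minus exon 7 numbered 0 without background correction, with the authors' values, without a detection filter, with the stricter one, with the groups alone and in each column set. For exon 1 minus exon 9 there were 0 with median scaling, without a filter, with the groups alone and in each set, and 2 with the column set as a block (alone or with the replicate block) or with values raised to background. For exon 7 minus exon 9 there was 1 (HES4) with either replicate block, the column set block, both together, no background correction, the authors' values, the stricter filter, the brightest probe and averaged probes. Leaving out an array or a replicate number gave 2 to 3, 1 to 2 and 2 to 3 members against control, 0 to 1, 0 to 2 and 0 to 1 between siRNAs (exon 1 with 7, exon 1 with 9, exon 7 with 9), 4 to 10, 0 to 0 and 1 to 4 other genes, and 610 to 1619, 74 to 234 and 190 to 420 probes. The causes were not tested. NOTCH3 and JAG1 lie near background, which limits what their differences can show.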
